A study of Mus musculus with 8 samples.

Results

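The genes described here encode the proteins of the cytosolic ribosome. They were taken by name: a protein-coding mouse row belonged to them if its symbol began with Rpl or Rps followed by a digit, or was Rpsa, Rplp0, Rplp1 or Rplp2, with symbols holding -ps and the S6 kinases left out. This gave 85 genes of the 52016 listed, 51 named for the large subunit and 34 for the small one. No measured value entered the choice. The rule's letters also take in Rps19bp1, which encodes a nucleolar protein that binds Rps19 and is no part of the mature ribosome, and they leave out Fau, which encodes a ribosomal protein fused to a ubiquitin-like protein.

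A ribosome is built of a small subunit, which reads the mRNA, and a large one, which joins the amino acids, and every subunit needs its proteins in fixed proportion. The mRNAs of these proteins are short, abundant in growing cells, and start with a run of pyrimidines through which growth signals control their translation. Mammalian genomes also hold many processed pseudogenes of them, made when an mRNA was copied back into DNA, so a short read from a ribosomal protein mRNA can match several places.

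The RNA came from serum exosomes, small vesicles that cells release, of NCr nu/nu mice, which lack a thymus and so most T cells and can carry grafts from another species. At week 8, at necropsy, serum was pooled from mice injected in the tibia with 100000 cells of the canine osteosarcoma line OSCA-40, from mice injected with 100000 cells of the canine osteosarcoma line OSCA-32, and from mice injected with PBS, each in 10 µl. Week 0 serum was pooled from all mice before injection, so the PBS group is the injected, tumour-free control and week 0 the baseline without injection. Each of the 4 groups has 2 libraries. Whether the 2 came from separate pools is not given, and the p-values below rest on the spread between libraries alone, which may be technical. Comparing the groups asks whether ribosomal protein transcripts in serum vesicles differ with a graft, between grafts, or with time.

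The deposited values are whole numbers that behave as TPM (an abundance per transcript length) over mouse and canine genes together, that is, they are relative to transcript length and to the library's total. Every library sums to 977106 to 989183, and depth cannot be recovered from such values. Canine genes took 68.4% and 70.7% of the total in the OSCA-40 libraries and 44.7% and 43.3% in the OSCA-32 libraries, against 14.7% and 15.2% in the PBS and 16.1% and 17.4% in the week 0 libraries. A mouse gene's deposited value is therefore pressed down in the tumour groups, and fold changes were taken after scaling the libraries to one another. Canine ribosomal protein genes were not analysed here, since the sources used here give no names for canine genes. Of the vesicle component names looked up, 14 had a row, and none of these was at 0 in all 8 libraries. Cd9, a tetraspanin of vesicle membranes, stood at 29 and 26 in OSCA-40 and 106 and 117 in OSCA-32 libraries. It stood at 208 and 192 in PBS and 198 and 234 in week 0 libraries.

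The sequences below are coding sequences of 3 ribosomal protein genes, each with a copy elsewhere in the genome, from GENCODE transcripts on build GRCm38. They are shown because a gene and its copy are listed as separate rows although their letters hardly differ. Rps12, a small-subunit protein, lies at chr10:23785183-23787275 on the minus strand, and Rps12-ps3 lies at chr19:59322290-59322783 on the plus strand. Over the first 150 coding bases they have 0 differing bases.
Rps12: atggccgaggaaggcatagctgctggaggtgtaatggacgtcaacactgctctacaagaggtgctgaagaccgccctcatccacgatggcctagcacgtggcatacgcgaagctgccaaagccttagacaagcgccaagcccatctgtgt
Rps12-ps3: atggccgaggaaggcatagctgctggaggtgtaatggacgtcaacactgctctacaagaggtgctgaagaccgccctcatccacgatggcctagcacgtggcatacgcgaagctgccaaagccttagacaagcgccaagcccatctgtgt
Rpl39, a large-subunit protein of the tunnel through which the new chain leaves the ribosome, lies at chrX:37082520-37085402 on the minus strand. Its processed pseudogene Rpl39-ps lies at chr15:102635038-102635188 on the plus strand and differs at 1 base of 150, marked by the capital, T96C when counted from the first coding base.
Rpl39: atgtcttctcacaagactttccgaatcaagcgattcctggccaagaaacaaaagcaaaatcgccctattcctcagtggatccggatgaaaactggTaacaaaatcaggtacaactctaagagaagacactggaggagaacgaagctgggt
Rpl39-ps: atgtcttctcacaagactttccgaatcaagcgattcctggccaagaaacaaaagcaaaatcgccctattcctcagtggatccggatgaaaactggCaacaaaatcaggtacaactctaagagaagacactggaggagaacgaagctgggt
Rpl36, a large-subunit protein, lies at chr17:56613416-56614243 on the plus strand. Its processed pseudogene Gm13611 lies at chr2:32271845-32272162 on the plus strand and, from coding base 46 to 315, differs at the 5 bases in capitals, namely T66C, A67G, C85A, G300T and C302A.
Rpl36: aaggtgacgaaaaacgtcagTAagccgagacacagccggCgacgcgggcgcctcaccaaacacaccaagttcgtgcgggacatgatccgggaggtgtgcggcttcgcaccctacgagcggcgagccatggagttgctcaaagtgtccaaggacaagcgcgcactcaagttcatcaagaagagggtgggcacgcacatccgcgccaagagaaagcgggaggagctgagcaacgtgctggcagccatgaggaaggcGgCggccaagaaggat
Gm13611: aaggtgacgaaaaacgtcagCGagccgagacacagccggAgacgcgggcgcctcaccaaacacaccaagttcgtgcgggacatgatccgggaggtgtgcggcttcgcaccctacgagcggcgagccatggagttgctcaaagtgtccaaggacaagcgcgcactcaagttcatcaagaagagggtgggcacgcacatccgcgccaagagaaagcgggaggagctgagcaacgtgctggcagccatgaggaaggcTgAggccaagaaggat

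Ribosomal protein genes were listed at low values in all libraries. Their median deposited value was 3 in both OSCA-40 libraries, 6 and 5 in OSCA-32, 9 in both PBS and 10 and 9 in week 0 libraries. For the other 21389 protein-coding mouse genes the median was 2 and 1 in OSCA-40, 3 and 3 in OSCA-32, 5 and 5 in PBS and 5 and 5 in week 0. The members thus sat somewhat above the middle: 66.0% and 66.7% of the other protein-coding genes lay below the members' median in OSCA-40, 68.5% and 60.7% in OSCA-32, 68.8% and 68.5% in PBS, and 73.8% and 70.4% in week 0 libraries. Against 2400 other genes with transcripts of 606 to 1109 bases, the range between the quartiles of the members' own lengths, the gap was of the same kind, with medians of those genes of 1 and 1 in OSCA-40, 2 and 3 in OSCA-32, 4 and 4 in PBS, and 3 and 4 in week 0.

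All 85 members together summed to 347 and 330 in the OSCA-40 libraries and to 677 and 629 in the OSCA-32 libraries, against 1044 and 1000 in PBS and 996 and 990 in week 0. As deposited, both tumour groups lay below both tumour-free groups without overlap. After scaling, the order changed: the sum averaged 715 ± 4.03 in OSCA-40 and 658 ± 47.1 in OSCA-32, against 688 ± 27.2 in PBS and 694 ± 11.4 in week 0 (SD, n = 2 each). The OSCA-40 libraries, at 718 and 712, then lay above every other library, the highest of which was the first PBS library at 707. As a share of all protein-coding mouse genes the members took 0.145% and 0.146% in OSCA-40, 0.157% and 0.141% in OSCA-32, 0.156% and 0.151% in PBS, and 0.150% and 0.154% in week 0 libraries. These shares lay between 0.141% and 0.157% in all 8 libraries, with OSCA-40 below both PBS libraries and OSCA-32 on either side of them. The scaled sum and the share thus put OSCA-40 on opposite sides of PBS. In serum, fewer vesicles of a kind and less RNA per vesicle cannot be told apart.

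**Figure D1:**
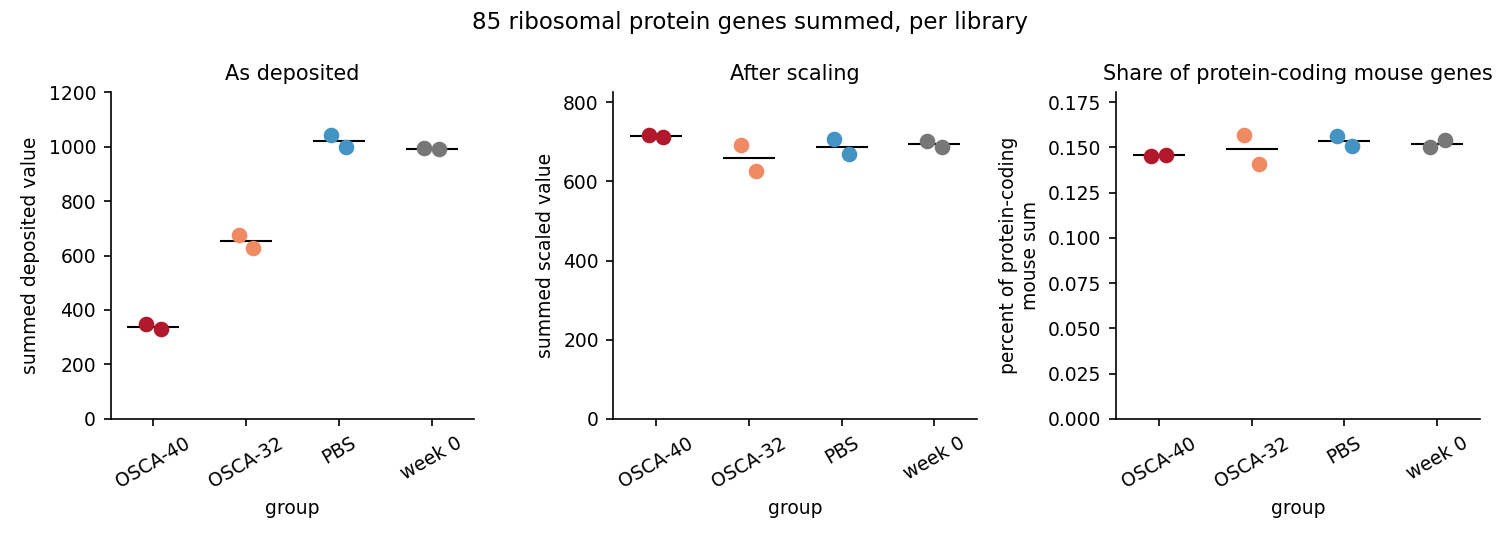
Sum of the 85 ribosomal protein genes in each library (points) and the mean of each group of 2 (line), as deposited, after scaling, and as a percent of the protein-coding mouse sum. The deposited sum runs from 330 to 1044, while the share stays between 0.141% and 0.157%.

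Some single members differed between libraries far more than the sum. Rpl29, a large-subunit protein also known to bind heparin, was the highest member in every library, with 25 and 24 in OSCA-40, 40 and 39 in OSCA-32, 70 and 74 in PBS and 57 and 64 in week 0 libraries. After scaling, its log2 fold change in OSCA-40 against PBS was 0.09 ± 0.11 (adjusted p = 0.671 with limma). Rpl21 had 23 and 6 in OSCA-40, 32 and 19 in OSCA-32, 53 and 35 in PBS and 38 and 37 in week 0. Rps29 had 21 and 17 in OSCA-40, 13 and 22 in OSCA-32, 32 and 54 in PBS and 34 and 28 in week 0. Rpl29 thus repeated closely between the 2 libraries of a group, while Rpl21 in OSCA-40 did not. Rps18, Rpl23, Rps27 and Rpl24 were also among the 8 members with the highest mean.

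At the other end stood members that growing cells need as much as any other. Rplp0, the base of the stalk that recruits elongation factors, was at 1 and 0 in OSCA-40, 0 and 1 in OSCA-32, and 1 in each PBS and week 0 library. Rps15, a small-subunit head protein, was listed at 0 in all libraries but the second of week 0, where it was at 5. These are the values of single rows. With close copies (described below) added, Rplp0 ranged from 4 to 16 and Rps15 from 2 to 15. Rps12 was at 2 and 3 in OSCA-40 and listed at 0 in the other 6 libraries. It was too low to be tested. With no filter on low values it passed as higher in OSCA-40 against PBS (adjusted p = 0.00328 with limma) and against OSCA-32 (adjusted p = 0.00513 with limma). Those passes rest on 2 and 3 against 0, and 2139 and 1644 genes passed in these comparisons without the filter. With its 21 close copies added, Rps12 had 8 and 9 in OSCA-40, against 51 and 36 in PBS and 23 and 40 in OSCA-32. The members at 0 numbered 15 and 8 in OSCA-40, 7 and 7 in OSCA-32, 2 and 4 in PBS, and 2 and 2 in week 0. At 10 or more stood 9 and 6 in OSCA-40, 26 and 23 in OSCA-32, 37 and 41 in PBS, and 43 and 41 in week 0. Over the 85 members, the ranks of the 2 libraries of a group correlated with Spearman's rho of 0.62 in OSCA-40, 0.75 in OSCA-32, 0.81 in PBS and 0.79 in week 0, a description across genes that share a library. The mean level was only weakly related to transcript length over the members (rho = -0.18, n = 85 genes).

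**Figure D2:**
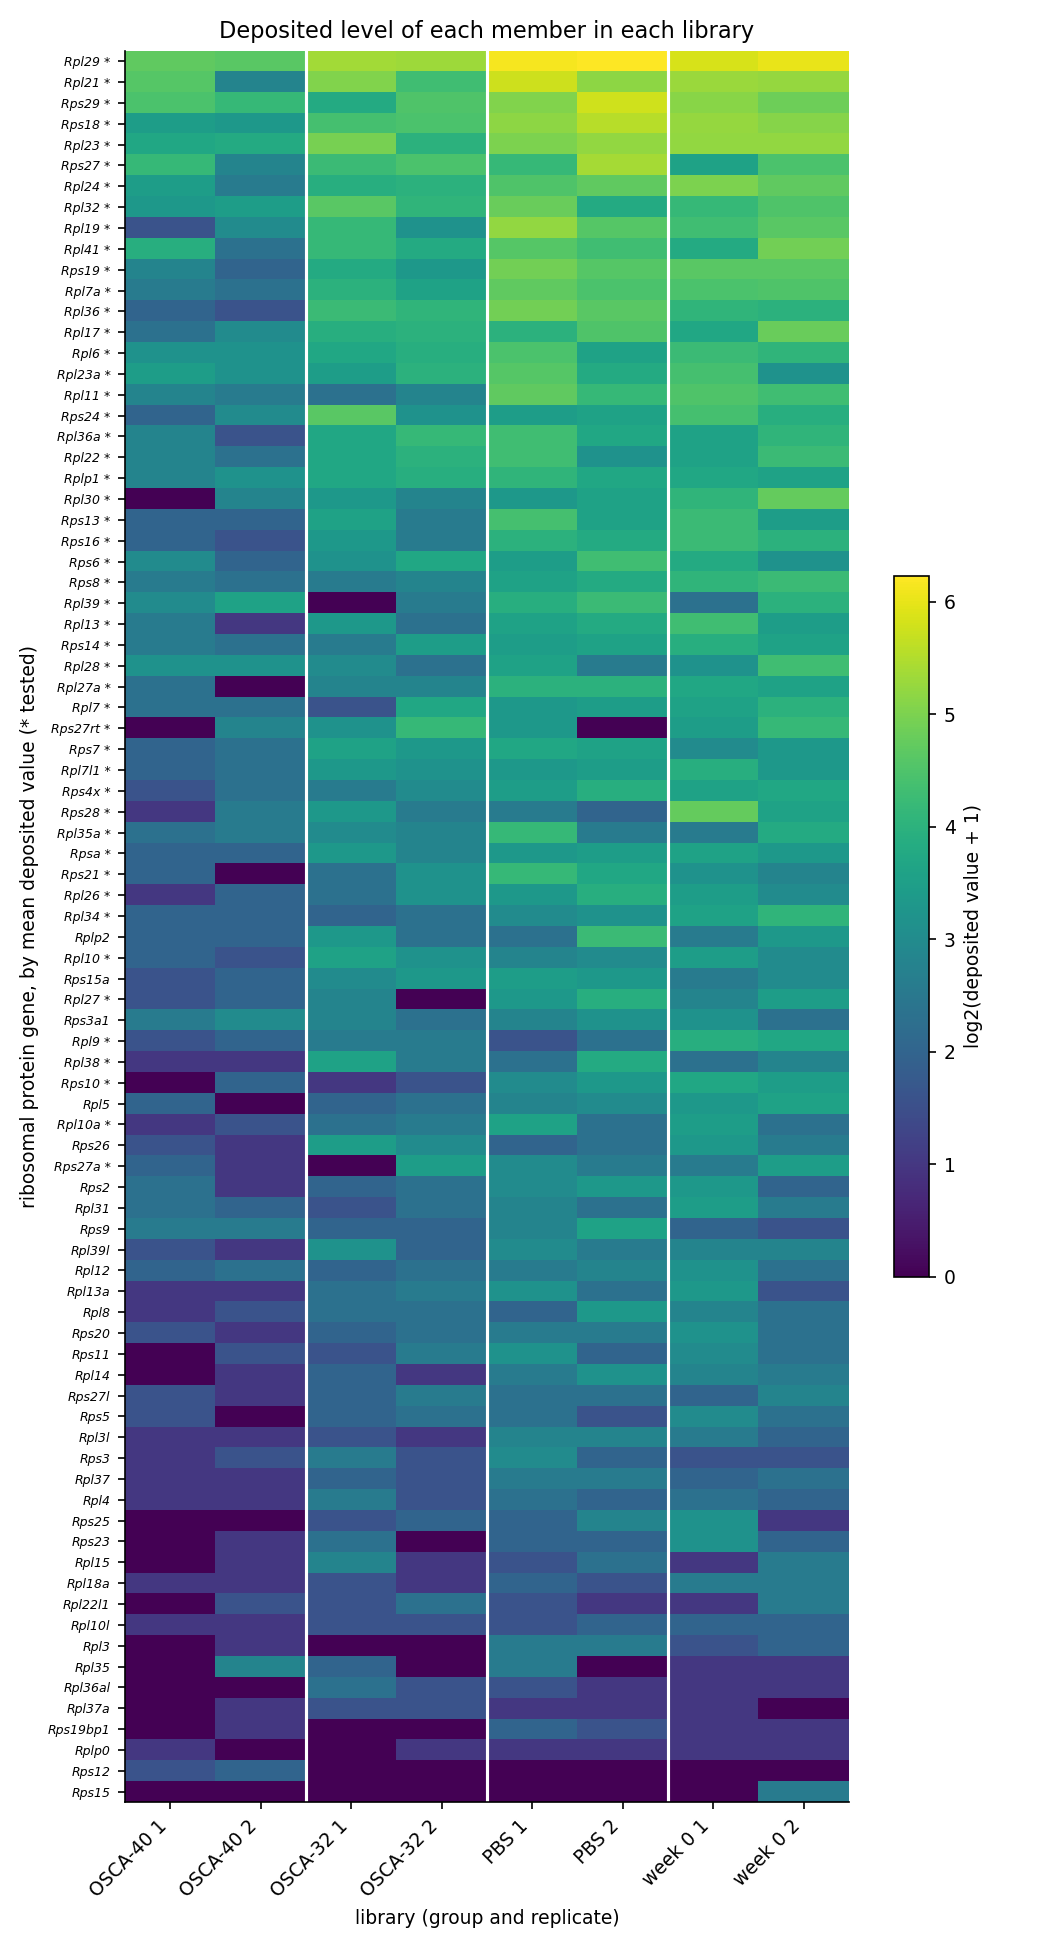
Deposited level of 84 of the 85 genes (rows, highest mean at the top) in each of the 8 libraries (columns), as log2(deposited value + 1). An asterisk marks genes that could be tested. Rpl29 is brightest in every column, and the OSCA-40 columns are the darkest.

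Several members have a paralogue that is known for use in particular tissues, and both of a pair were mostly low here. Rpl3, which helps form the peptidyl transferase centre, had 0 and 1 in OSCA-40, 0 and 0 in OSCA-32, 5 and 5 in PBS and 2 and 3 in week 0, while its muscle paralogue Rpl3l had 1 and 1 in OSCA-40, 2 and 1 in OSCA-32, 6 and 6 in PBS and 5 and 3 in week 0. As single rows, the muscle form was thus at or above the common form in every library. Rpl3 has 6 close copies (described below) and Rpl3l has 0. With them added, Rpl3 had 7 and 8 in OSCA-40 and 14 and 17 in OSCA-32 libraries. In PBS it then had 19 and 22 and in week 0 it had 21 and 14, above Rpl3l in every library. Rpl10, one of the last proteins to join the large subunit, had 3 and 2 in OSCA-40, 11 and 8 in OSCA-32, 6 and 7 in PBS and 10 and 7 in week 0. Rpl10l, its germ cell paralogue, had 1 and 1 in OSCA-40, 2 and 2 in OSCA-32, 2 and 3 in PBS and 3 and 3 in week 0, and so lay below Rpl10 throughout. Rpl39l, the testis paralogue of Rpl39, had 2 and 1 in OSCA-40, 8 and 3 in OSCA-32, 7 and 5 in PBS and 6 and 6 in week 0.

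Rpl22, an RNA-binding protein of the large subunit, had 6 and 4 in OSCA-40, 12 and 15 in OSCA-32, 19 and 8 in PBS and 11 and 18 in week 0. Rpl22l1, which can take its place, had 0 and 2 in OSCA-40, 2 and 4 in OSCA-32, 2 and 1 in PBS and 1 and 5 in week 0. Rpl36a ranged from 2 to 19 and Rpl36al from 0 to 4, Rpl7 from 2 to 15 and its nucleolar relative Rpl7l1 from 3 to 14, and Rps27 from 6 to 41 and Rps27l from 1 to 6. Of the pairs in this paragraph, Rpl7 and Rpl7l1 alone overlapped over nearly their whole range as single rows. With close copies added, Rpl7 ranged from 9 to 32 and Rpl7l1 from 4 to 17, and Rpl7 was higher in every library. Rps4x ranged from 2 to 14, and its paralogue Rps4l was not analysed here.

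A gene was tested if it had at least 10 in at least 2 libraries, which kept 7872 mouse and canine genes and 50 of the 85 members. The 35 members not tested were low in every group or high in a single library, and with values this small a fold change on the log2(scaled value + 1) scale understates the change of a low gene. All tests are limma's with Benjamini-Hochberg adjustment over the 7872 genes, and a gene passed at an adjusted p under 0.05. The standard error of a member's log2 fold change was 0.45 in the median, against 0.31 over all genes tested.

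Between OSCA-40 and PBS, 1 of the 50 tested members passed, as lower, against 6.77% of all genes tested in either direction and 2.34% as lower. This was Rpl36, at 3 and 2 in OSCA-40 libraries, against 29 and 24 in PBS libraries. The groups did not overlap, and Rpl36 fell in OSCA-40 by a log2 fold change of -1.60 ± 0.23 (SE, adjusted p = 0.00696 with limma). The call ended without the first PBS library (adjusted p = 0.0706 with limma) and with the groups compared fitted alone (adjusted p = 0.068 with limma). When its named pseudogenes were added to it the log2 fold change was 0.07 ± 0.11 (adjusted p = 0.761 with limma).

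The other 49 members did not pass, and 7 of the 50 had an unadjusted p under 0.05, against 20.8% of all genes. After scaling, 13 members lay above PBS in both OSCA-40 libraries and 10 below, together 46% of the 50, against 50.1% of all genes tested (25% above and 25.1% below). The members' median log2 fold change was 0.02, with quartiles of -0.56 and 0.37, and the median over all genes tested was -0.02. The members of the large subunit had a median of 0.09 (n = 31) and those of the small subunit -0.01 (n = 19).

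Among the members whose libraries did not overlap after scaling, Rpl28, a large-subunit protein, had the highest log2 fold change. It stood at 8 and 8 in OSCA-40, against 11 and 5 in PBS as deposited, and its log2 fold change was 1.56 ± 0.48 (adjusted p = 0.121 with limma). Rpl9, another large-subunit protein, stood at 2 and 3 in OSCA-40, against 2 and 4 in PBS, with a log2 fold change of 1.07 ± 0.42 (adjusted p = 0.204 with limma). Adding its close copies took Rpl9 to 0.03 ± 0.21 (adjusted p = 0.958 with limma). As deposited, both genes overlapped between the groups, and they were apart after scaling.

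At the low end, Rps21, a small-subunit protein, had 3 and 0 in OSCA-40, against 17 and 12 in PBS, a log2 fold change of -1.99 ± 0.87 (adjusted p = 0.254 with limma). Rpl27a had 4 and 0 in OSCA-40, against 15 and 15 in PBS, a log2 fold change of -1.87 ± 0.90 (adjusted p = 0.295 with limma). In both genes the second OSCA-40 library was at 0, and both estimates turned on it. Without the first OSCA-40 library Rps21 was at -3.41 (adjusted p = 0.0228 with limma) and Rpl27a at -3.47 (adjusted p = 0.00479 with limma). Without the second they were at -0.56 (adjusted p = 0.543 with limma) and -0.26 (adjusted p = 0.625 with limma), and with its close copies added Rpl27a was at -0.59 (adjusted p = 0.322 with limma). Rpl19 had 2 and 7 in OSCA-40, against 36 and 23 in PBS, a log2 fold change of -1.16 ± 0.57 (adjusted p = 0.305 with limma). Without the first or the second OSCA-40 library it was -0.34 or -1.99, and with named pseudogenes or close copies added its sign turned, to 0.35 or 0.41.

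Between OSCA-32 and PBS, 0 of the 50 members passed, against 1.09% of all genes tested, and 5 had an unadjusted p under 0.05 in the limma fit, against 10.4% of all genes. The smallest adjusted p was that of Rpl11, which with Rpl5 carries a ribosomal RNA and can bind Mdm2. Rpl11 had 4 and 6 in OSCA-32 libraries, against 25 and 17 in PBS libraries, without overlap, and its log2 fold change was -1.32 ± 0.28 (adjusted p = 0.104 with limma). Adding its close copies took Rpl11 to -0.73 ± 0.17 (adjusted p = 0.135 with limma). Rps10, a small-subunit protein, had 1 and 2 in OSCA-32, against 7 and 9 in PBS, a log2 fold change of -1.37 ± 0.93 (adjusted p = 0.703 with limma). After scaling, 8 members lay above PBS in both OSCA-32 libraries and 11 below, together 38% of the 50, against 42.3% of all genes tested (22.0% above and 20.4% below). The median log2 fold change was -0.06 in the members and 0.00 over all genes tested.

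**Figure D3:**
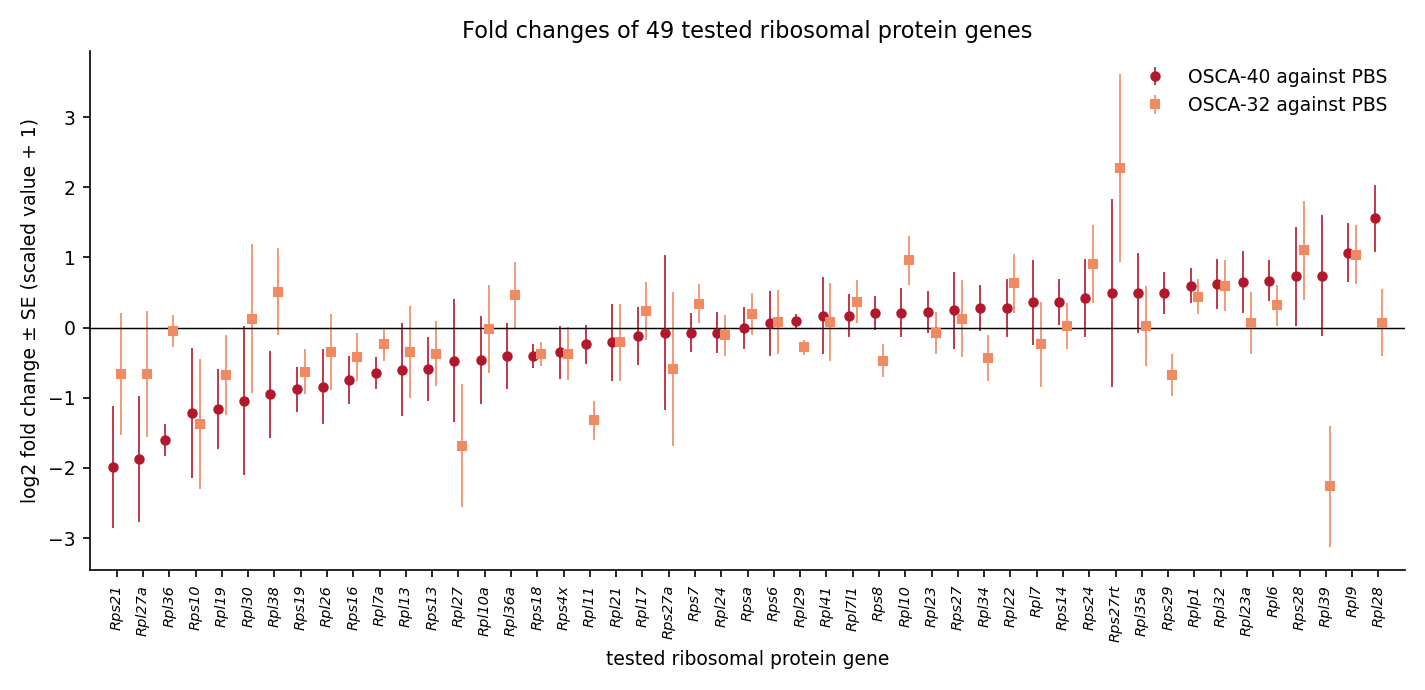
Log2 fold change (vertical axis, on the scaled value + 1, with SE) of 49 of the 50 tested genes, in order of its value in OSCA-40 against PBS, for OSCA-40 (circles) and OSCA-32 (squares). Both comparisons share the PBS libraries. Of the points drawn, that of Rpl36 in OSCA-40 at -1.60 passed the test.

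For the mean of both lines against PBS, 0 of the 50 members passed, against 4.48% of all genes, and 6 had an unadjusted p under 0.05 in the limma fit, against 16.7% of all genes. Rpl36 had the smallest adjusted p, 0.077 with limma, at a log2 fold change of -0.83 ± 0.20. Of the 50, 2 members lay above PBS in all 4 tumour libraries after scaling and 4 below, together 12%, against 22.6% of all genes (11.9% above and 10.7% below). The 2 above were Rpl9 and Rplp1, a stalk protein. The log2 fold change of Rpl9 was 1.06 ± 0.36, and 0.23 ± 0.18 with close copies added (adjusted p = 0.203 and 0.6 with limma). Rplp1 had 6 and 8 in OSCA-40 and 12 and 14 in OSCA-32, against 16 and 12 in PBS as deposited, with a log2 fold change of 0.52 ± 0.21 (adjusted p = 0.285 with limma). The 4 below were Rps21, Rpl27a, Rps18 and Rps19. Rps18, at the head of the small subunit, had 10 and 9 in OSCA-40 and 20 and 21 in OSCA-32, against 35 and 46 in PBS, a log2 fold change of -0.39 ± 0.15 (adjusted p = 0.242 with limma). Rps19, whose human gene is mutated in Diamond-Blackfan anaemia, had 6 and 3 in OSCA-40 and 13 and 9 in OSCA-32, against 29 and 23 in PBS, a log2 fold change of -0.75 ± 0.28 (adjusted p = 0.242 with limma). With close copies added, Rps18 had 11 and 10 in OSCA-40 and 32 and 28 in OSCA-32, against 44 and 55 in PBS as deposited. Rps19 then had 15 and 4 in OSCA-40 and 15 and 22 in OSCA-32, against 48 and 27 in PBS. Rpl27a then had 11 and 6 in OSCA-40 and 18 and 23 in OSCA-32, against 48 and 32 in PBS. After scaling, these sums of all 3 genes overlapped between tumour and PBS libraries, while Rps21 has 0 close copies.

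Between the 2 grafted lines, 1 of the 50 members passed, as lower in OSCA-40, against 2.73% of all genes tested in either direction and 0.965% as lower, and it was again Rpl36. It had 3 and 2 in OSCA-40 libraries, against 18 and 16 in OSCA-32 libraries, and fell in OSCA-40 by a log2 fold change of -1.55 ± 0.23 (adjusted p = 0.0197 with limma). This comparison shares the OSCA-40 libraries with the one against PBS. The call ended without any 1 of the week 0, PBS or OSCA-32 libraries or without the second OSCA-40 library (adjusted p over all single omissions 0.0271 to 0.106 with limma), and with the named pseudogenes added the log2 fold change was 0.11 (adjusted p = 0.697 with limma). After scaling, 10 members were higher and 5 lower in OSCA-40 without overlap, together 30%, against 41.7% of all genes tested (21.7% higher and 20% lower). An unadjusted p under 0.05 was found for 7 members, against 16.4% of all genes.

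Rpl39 had the highest log2 fold change between the lines. It had 7 and 11 in OSCA-40 libraries, against 0 and 5 in OSCA-32 libraries, and its log2 fold change of 3.0 ± 0.86 did not pass (adjusted p = 0.144 with limma). Without the first or the second OSCA-32 library it was 1.71 or 4.29, and with its copy added the sign turned, to -0.70 ± 0.25 (adjusted p = 0.226 with limma). Rps29 had 21 and 17 in OSCA-40, against 13 and 22 in OSCA-32, with a log2 fold change of 1.18 ± 0.30 (adjusted p = 0.113 with limma). Rpl11 had 6 and 5 in OSCA-40, against 4 and 6 in OSCA-32, with a log2 fold change of 1.08 ± 0.28 (adjusted p = 0.109 with limma). Adding its close copies took Rpl11 to 0.32 ± 0.17 (adjusted p = 0.4 with limma). As deposited, Rps29 and Rpl11 overlapped between the lines.

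Between PBS at week 8 and week 0, 0 of the 50 members passed, against 0.165% of all genes, and 3 had an unadjusted p under 0.05 in the limma fit, against 4.71% of all genes. Rpl9 had the smallest adjusted p. It had 2 and 4 in PBS libraries, against 14 and 12 in week 0 libraries, without overlap, a log2 fold change of -1.77 ± 0.42 (adjusted p = 0.474 with limma). With named pseudogenes or close copies added, the log2 fold change of Rpl9 was -0.16 or -0.42. Rps28, a small-subunit protein, had 5 and 3 in PBS, against 26 and 11 in week 0, a log2 fold change of -1.83 ± 0.71 (adjusted p = 0.999 with limma), which turned to 0.69 ± 0.45 with close copies added. Rpl36 went the other way, with 29 and 24 in PBS, against 16 and 15 in week 0, a log2 fold change of 0.67 ± 0.23 (adjusted p = 0.957 with limma). After scaling, 5 members were higher in PBS and 14 lower without overlap, together 38%, against 38.7% of all genes (18.9% higher and 19.8% lower).

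Close copies were common. Of the 85 members, 71 had at least 1 copy among the listed mouse genes, at 95% identity or more over at least 100 bases and 50% of the copy, and the copies numbered 453 in all. Rpl21 had the most, 47. The copies were annotated as processed pseudogenes in all but a few cases, and 21 of them were identical to the member over the aligned stretch. Together they summed to 540 and 519 in OSCA-40 and to 1086 and 1161 in OSCA-32, against 1800 and 1771 in PBS and 1617 and 1722 in week 0 libraries. In every library this was more than the members' own sum, by 1.56 to 1.85 times.

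For Rps12 and Rpl39, the gene stood above a copy in OSCA-40 and below it in PBS. Rps12-ps3, which is identical to Rps12 over 400 aligned bases, had 1 and 0 in OSCA-40, 14 and 18 in OSCA-32, 22 and 17 in PBS and 21 and 24 in week 0, while Rps12 itself was above 0 in OSCA-40 alone. Rps12-ps3 fell in OSCA-40 against PBS by a log2 fold change of -3.00 ± 0.50 (adjusted p = 0.0126 with limma). Rpl39-ps had 0 and 1 in OSCA-40, 30 and 29 in OSCA-32, 31 and 29 in PBS and 24 and 15 in week 0, and fell in OSCA-40 against PBS by a log2 fold change of -3.58 ± 0.51 (adjusted p = 0.00668 with limma). Rpl39 itself had 7 and 11 in OSCA-40, against 14 and 18 in PBS, with a log2 fold change of 0.74 ± 0.86 (adjusted p = 0.674 with limma), and in the second week 0 library gene and pseudogene were both at 15.

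With all close copies added, Rps12 had 8 and 9 in OSCA-40, 23 and 40 in OSCA-32, 51 and 36 in PBS and 39 and 54 in week 0 libraries. Rpl39 with its copy had 7 and 12 in OSCA-40, 30 and 34 in OSCA-32, 45 and 47 in PBS and 28 and 30 in week 0. As deposited, both sums were lowest in OSCA-40. After scaling, the log2 fold change of Rpl39 with its copy in OSCA-40 against PBS was -0.65 ± 0.25 (adjusted p = 0.198 with limma). Rpl36 with its 7 close copies had 25 and 28 in OSCA-40, 42 and 60 in OSCA-32, 82 and 87 in PBS and 58 and 61 in week 0, and its log2 fold change in OSCA-40 against PBS was then -0.02 ± 0.17 (adjusted p = 0.957 with limma). Of these, Gm13611 had 2 and 8 in OSCA-40, 0 and 12 in OSCA-32, 23 and 12 in PBS and 7 and 4 in week 0, and its log2 fold change in OSCA-40 against PBS was -0.34 ± 1.17 (adjusted p = 0.912 with limma). Another, Gm5745, had 0 and 0 in OSCA-40, against 15 and 10 in PBS, and passed as lower (log2 fold change -3.21 ± 0.53, adjusted p = 0.0119 with limma).

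**Figure D4:**
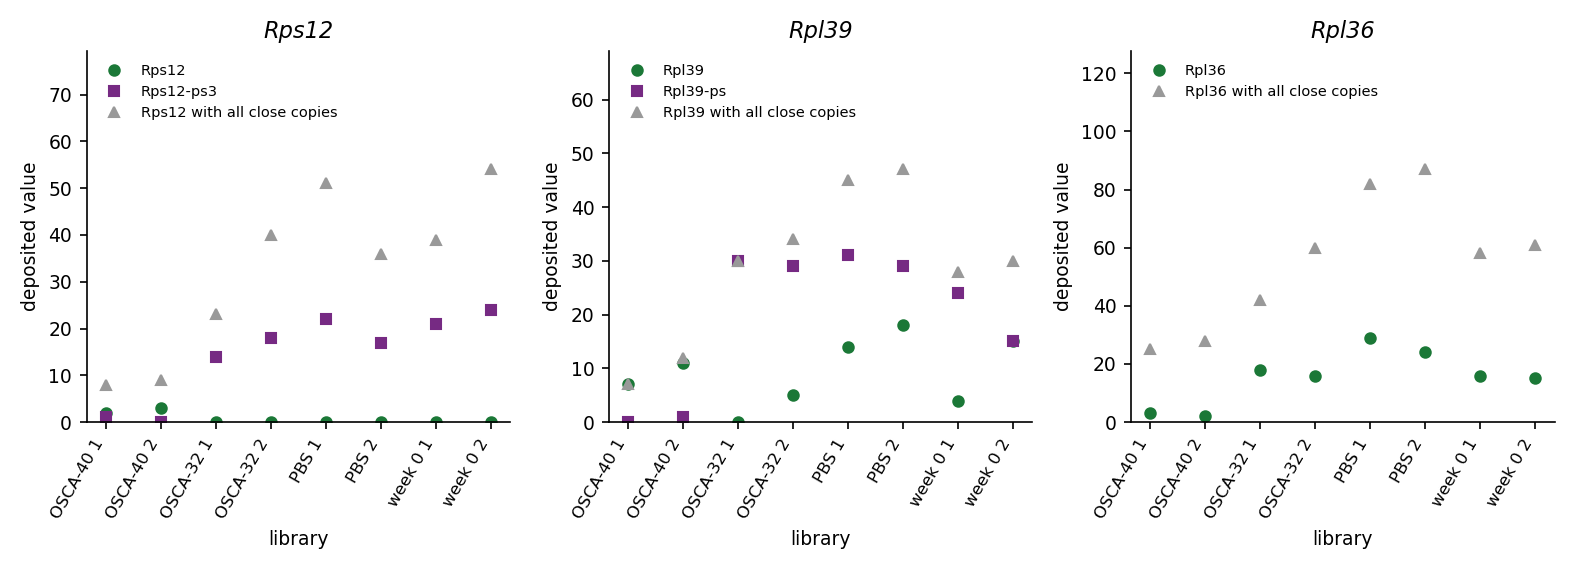
Deposited value in each of the 8 libraries for Rps12, Rpl39 and Rpl36 (circles), for 1 copy of Rps12 and of Rpl39 (squares), and for the gene summed with all its close copies (triangles). Rps12-ps3 and Rpl39-ps are at 0 or 1 in OSCA-40 and at 14 or more elsewhere.

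Of 43 copies that could be tested, 3 passed in OSCA-40 against PBS, all as lower, against 2.34% of all genes as lower and 6.77% in either direction, and they were Rps12-ps3, Rpl39-ps and Gm5745. Between the lines 4 passed as lower in OSCA-40, against 0.965% of all genes as lower, namely these and Gm5850, a copy of Rpl3 with 1 and 1 in OSCA-40, against 10 and 13 in OSCA-32. With close copies added, a choice made after the values were seen, Rpl28 passed as higher in OSCA-40. It then had 16 and 20 in OSCA-40, against 22 and 26 in PBS as deposited, with a log2 fold change of 1.18 ± 0.18 (adjusted p = 0.00859 with limma), and for both lines against PBS it was 0.84 ± 0.16 (adjusted p = 0.0283 with limma). Rps27 and Rps27rt, both members, are identical over 341 aligned bases. Rps27rt had 0 and 6 in OSCA-40, 8 and 17 in OSCA-32, 9 and 0 in PBS and 10 and 17 in week 0, and Rps27 had 17 and 6 in OSCA-40, 18 and 21 in OSCA-32, 17 and 41 in PBS and 11 and 21 in week 0. Where Rps27rt was listed at 0, in the first OSCA-40 and the second PBS library, Rps27 was at the higher of its group's 2 values.

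Other genes of the translation machinery were looked up by list. Of 10 elongation genes 5 were tested, of 31 initiation genes 11, of 10 other mRNAs with a pyrimidine start 7, of 40 ribosome biogenesis genes 13 and of 10 S6 kinase genes 4, and in these lists 0 passed in any of the 5 comparisons. Eef1a1, which brings aminoacyl-tRNA to the ribosome, had 12 and 7 in OSCA-40 and 3 and 6 in OSCA-32, against 12 and 8 in PBS, with a log2 fold change of 1.42 ± 0.41 in OSCA-40 against PBS (adjusted p = 0.103 with limma). Of the mitochondrial ribosomal proteins, which serve a separate ribosome, 37 of 78 were tested. In OSCA-40 against PBS 2 passed as higher and 0 as lower, a share near the 6.77% of all genes that passed in either direction. Mrpl3 had 48 and 48 in OSCA-40, against 62 and 55 in PBS, a log2 fold change of 1.35 ± 0.18 (adjusted p = 0.00531 with limma). Mrps18c had 122 and 131 in OSCA-40, against 237 and 288 in PBS, a log2 fold change of 0.60 ± 0.11 (adjusted p = 0.0211 with limma). In both genes the deposited value was lower in OSCA-40 and the scaled value higher.

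Some markers of other cell types were higher in OSCA-40, where the Rpl36 row fell. Of 11 platelet genes 3 were tested and 2 rose in OSCA-40 against PBS, Pf4 and Ppbp. The scaled sum of the list was 227 to 256 in OSCA-40, against 62.2 to 78.6 in PBS, and Pf4 alone held 85 of 124 and 69 of 105 deposited in the OSCA-40 libraries. Of 11 erythroid genes 8 were tested and Hba-a2, a globin gene, rose. The scaled sum was 558 to 643 in OSCA-40, against 237 to 257 in PBS, and Hba-a2 held 194 of 270 and 196 of 298 deposited in the OSCA-40 libraries. Of 12 hepatocyte genes 4 were tested and 2 rose, Alb and Trf, with a scaled sum of 132 to 147 in OSCA-40, against 52.8 to 69.5 in PBS. Among 11 leukocyte genes and 9 osteoblast genes 0 passed in the limma fit. The scaled sum of the leukocyte genes was 56.1 to 62.0 in OSCA-40, against 65.5 to 69.1 in PBS, without overlap. That of the osteoblast genes was 47.5 to 53.8 in OSCA-40, against 50.2 to 64.4 in PBS, with overlap. Of 14 vesicle genes 7 were tested and Cd9 fell, with a scaled sum of 121 to 124 in OSCA-40, against 208 to 218 in PBS. Cd9 alone held 29 of 60 and 26 of 56 deposited in the OSCA-40 libraries, and 208 of 322 and 192 of 311 in PBS. None of the genes on these lists that had a row was at 0 in all 8 libraries, and names without a row were not counted. Their part in the values of the ribosomal protein genes was not tested.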

How the data were processed

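The members and all gene lists were chosen with earlier results of these data known. ExoQuick enrichment of serum exosomes, SeraMir RNA extraction and a stranded pico-input total RNA kit gave the libraries, per the labels' protocols. Tools recorded in the submitters' processing notes are FastQC 0.11.5, Trimmomatic 0.33.0 and kallisto 0.43.0, with the builds GRCm38.p5 for mouse and CanFam3.1 for dog. Index and annotation are not stated there. The authors deposited 1 table for 8 libraries, called counts but treated here as a score, since every library has nearly the same total. A planned count test was not used.

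Gene identifiers were matched to GENCODE release 21 for mouse (31171 of 31300). Scaling factors came from log ratios to the first week 0 library, averaged after trimming (30% of ratios and 5% of levels at each end). The test was limma 3.58.1 (R 4.3.3) on log2(scaled value + 1), all groups in 1 fit with 4 residual degrees of freedom, and was checked on simulated data. Named members were those that passed, the 8 highest, up to 5 per direction and comparison with the largest fold change without overlap, and paralogue pairs, of which the main ones are described. Close copies were found with BLAST 2.17.0 on the members' transcripts. Replicate numbers did not pair the libraries. Other scalings, filters and pseudocounts, the replicate block, copies added and single omissions were tried. 1 member is counted in sums and counts but not reported by name here.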

Additional observations from a re-analysis of the deposited data

Results flagged for a closer look

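Rpl36 differed between the 2 grafted lines in the test of the difference itself. Its log2 fold change between OSCA-40 and OSCA-32 was -1.55 (adjusted p = 0.0197 with limma), and that against PBS was -1.60 in OSCA-40 and -0.05 in OSCA-32. The difference was 0.11 on the same scale when the named pseudogenes of Rpl36 were added to it.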

How the results depend on the processing

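Groups of 2 libraries and values near 1 limit what can be seen for single genes. With library totals in place of scaling, the median of all genes tested was -1.51, -0.55, -1.04 and -0.95 in OSCA-40, OSCA-32 and both lines against PBS and between the lines. The members' medians were then -1.40, -0.63, -1.05 and -0.99, the members passing 38, 7, 28 and 17, and the genes passing 6725, 1353, 6033 and 4638. Rpl29 in OSCA-40 against PBS was at -1.53 with library totals and at 0.09 after scaling. Without a filter, genes too low for the main test, such as Rps12 and Rpl36al, were tested too. In OSCA-40 against PBS, 2139 genes and 2 members then passed (Rpl36 lower and Rps12 higher). For both lines 1239 genes and 1 member passed (Rps12 higher). Between the lines 1644 genes and 3 members passed (Rpl36 and Rpl36al lower, Rps12 higher), and between PBS and week 0 2 genes did. The numbers of genes and members tested without the filter are not given here. Whether members passed more or less often than all genes therefore cannot be read from these counts. At a mean of at least 20, which 5 members reach and Rpl36 does not, 0 members passed in OSCA-40 against PBS or OSCA-32, the medians were -0.28 in OSCA-32, 0.29 between the lines and 0.14 between PBS and week 0, and 20 genes passed in the last. With the compared groups fitted alone, 312, 46, 80 and 2 genes passed in OSCA-40 and OSCA-32 against PBS, between the lines and between PBS and week 0, with 0 members in OSCA-40 against either. With named pseudogenes added, 0 members passed in OSCA-40 against PBS or OSCA-32, and Rpl36 was at 0.07 and 0.11. With close copies added, chosen after seeing the data, 1 member passed for both lines against PBS and 0 between the lines, where Rpl36 was at 0.14. For library totals, no filter and groups fitted alone, the cause of the change was not tested.

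With the replicate number as a block, 143 genes passed between the lines and 6 between PBS and week 0, and Rpl36 stayed below 0.05 in both its comparisons. The deviations of same-numbered libraries correlated at -0.056 to 0.005.

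Leaving out 1 library at a time, the genes passing ranged from 270 to 548 in OSCA-40 against PBS, 36 to 90 in OSCA-32, 135 to 350 for both lines, 69 to 156 between the lines and 2 to 7 between PBS and week 0. The members passing ranged from 0 to 3, 0 to 0, 0 to 1, 0 to 2 and 0 to 0 in the same order. The members' medians ranged from -0.14 to 0.08, -0.18 to 0.01, -0.14 to -0.02, -0.20 to 0.11 and -0.17 to 0.03. Without the first OSCA-40 library, Rpl27a passed as lower in OSCA-40 against PBS, for both lines and between the lines, and Rps21 in OSCA-40 against PBS. Without the second, Rpl30 passed as lower in OSCA-40 against PBS and between the lines.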
